A study of Homo sapiens with 52 samples.

Results

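The genes described here are 43 interferon-stimulated genes, taken by gene name from the 78894 genes quantified by mRNA sequencing of 3 human breast cancer cell lines. All 43 names were found once in the deposited gene-level values. The names were chosen with earlier results of these data known. SUM159PT, MDA-MB-231 and HS578T are established lines of the claudin-low type. In each line, NRP1, the gene of the co-receptor neuropilin-1, was knocked down with 2 target sequences delivered as siRNA or as shRNA, and each was set against a non-targeting (NT) control of the same delivery. The siRNA groups siNT, siNRP1#3 and siNRP1#5 were transfected at 20 nM and RNA was taken at 72 hrs. The shRNA groups shNT, shNRP1#3 and shNRP1#5 were transduced with lentivirus and selected with puromycin, and RNA was taken 48 hrs after seeding. The #3 sequences, which differ between siRNA and shRNA, target transmembrane NRP1 alone, and the #5 sequence, which siRNA and shRNA share, targets transmembrane and soluble NRP1. Of the 18 groups, 16 had 3 samples and 2 had 2 samples (SUM159PT siNRP1#5 with replicates 2 and 3, HS578T shNRP1#3 with replicates 1 and 2), 52 samples in all. The shRNA replicates were consecutive passages of a culture transduced once, so that their p-values measure the spread between passages of that culture. For the siRNA samples the sources name separate biological replicates without saying more, and their p-values too measure only the spread between these samples.

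Interferons bind receptors at the cell surface, which activate the kinases JAK1 and TYK2, and these phosphorylate STAT2 among other proteins. STAT2 and IRF9 are parts of the complex ISGF3, which enters the nucleus and binds a DNA element called the interferon-stimulated response element (ISRE) in front of the genes described here. Their products bind foreign RNA, tag proteins with ISG15, hold virus particles at membranes, edit nucleotide pools or attract T cells, and many tumour lines express a part of the set without added interferon.

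DNA in front of some members is shown first, because the element that ISGF3 binds is known from genes of this kind. The stretches come from RefSeq on build GRCh38.p14 and were cut from the window of 250 bases before and 50 bases from each gene's start, 25 bases either side of the ISRE letters. Capitals mark the ISRE letters, which are GAAA, any 2 bases and GAAA, or on the other strand TTTC, any 2 bases and TTTC. ISG15 (chr1:1013359-1013424, plus strand), IFIT1 (chr10:89392482-89392554, plus), IFIT3 (chr10:89332410-89332512, plus), HERC5 (chr4:88456969-88457079, plus), BST2 (chr19:17405720-17405785, minus), CXCL10 (chr4:76023684-76023743, minus) and IFI27 (chr14:94110603-94110675, plus) are shown as examples from the members given in full below. MX1, OAS3 and other members with the letters are not shown. The stretch between PARP9 (minus) and DTX3L (plus) lies at chr3:122564307-122564366 and holds a single match, which spans the start of DTX3L and lies before that of PARP9. The proteins of both genes act as a pair. It is given here once, as read for DTX3L.
ISG15: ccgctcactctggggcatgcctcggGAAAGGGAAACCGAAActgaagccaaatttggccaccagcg
IFIT1: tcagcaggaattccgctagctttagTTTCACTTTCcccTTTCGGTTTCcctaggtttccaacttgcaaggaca
IFIT3: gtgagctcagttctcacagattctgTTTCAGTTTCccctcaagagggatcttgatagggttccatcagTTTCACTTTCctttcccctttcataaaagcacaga
HERC5: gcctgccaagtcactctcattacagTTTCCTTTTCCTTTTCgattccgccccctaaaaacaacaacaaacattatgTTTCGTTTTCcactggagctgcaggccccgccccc
BST2: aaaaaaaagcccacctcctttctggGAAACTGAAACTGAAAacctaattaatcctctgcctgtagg
CXCL10: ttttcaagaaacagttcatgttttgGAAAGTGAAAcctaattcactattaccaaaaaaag
IFI27: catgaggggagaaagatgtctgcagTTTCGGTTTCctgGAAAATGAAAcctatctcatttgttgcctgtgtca
DTX3L and PARP9: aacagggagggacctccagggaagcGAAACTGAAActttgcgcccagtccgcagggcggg

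Of the 43 members, 35 had a promoter window in the RefSeq table. The ISRE letters were in the windows of 24 of these 35 (68.6%), beside 3.57% of all 35116 windows of the same length. A second element, GAS, known from genes that respond to interferon gamma, was searched as TTC, any 3 bases and GAA, which reads the same on both strands, and was in 13 of 35 (37.1%), beside 7.66% of all windows. For both elements a member counts if any of its windows holds the letters (48 windows for the 35 members). The share of all windows is counted per window, so that the shares differ in unit. Of 47 ISRE matches, counted once for each start a gene has, 39 lay within 150 bases before a start. ISG15, HERC5 and BST2 each held matches that overlap one another, as the unbroken capitals above show. A match is a description of letters and not of binding. IRF9, STAT2, OAS1, UBE2L6, HERC6, CMPK2, CXCL11, IFI35, XAF1, SAMD9L and SP110 had a window without these letters, and MX2, IFIT2, TRIM22, OAS2, USP18, IRF7, OASL and IFITM2 had no window in the table.

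**Figure D1:**
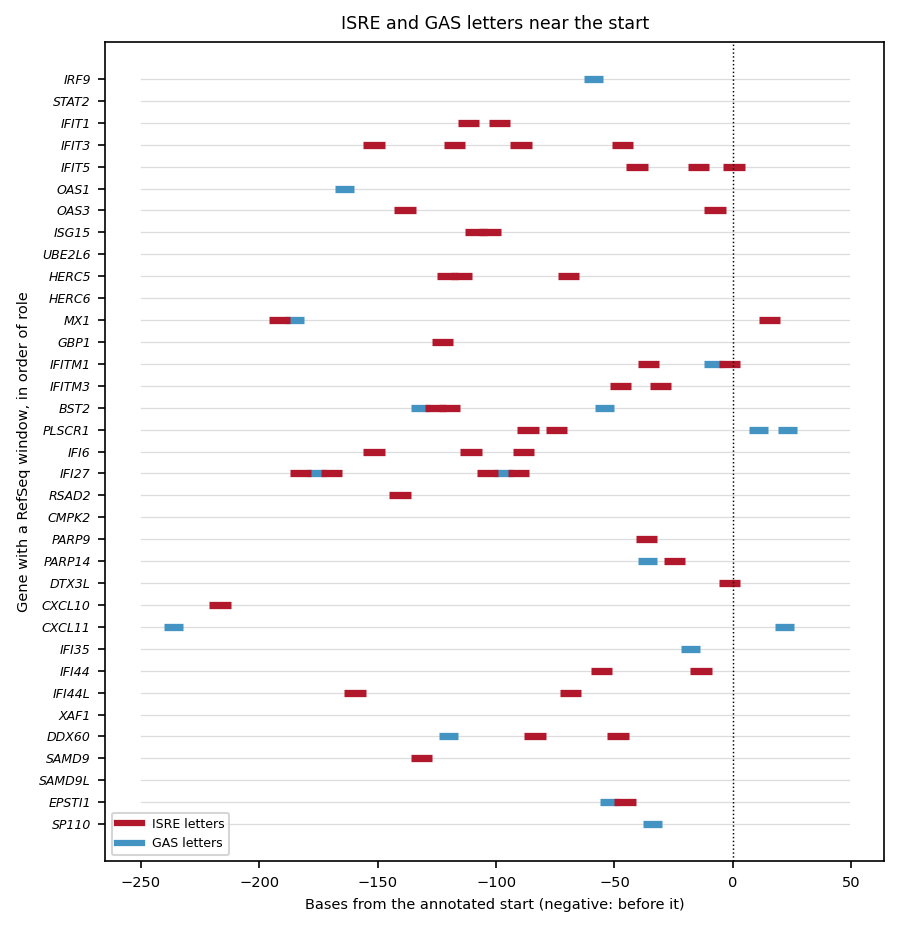
ISRE letters (red) and GAS letters (blue) in the promoter windows of the members, 1 row per gene, with the distance from the start in bases on the x axis, from 250 bases before to 50 bases after it. Where a gene has more than 1 start, its row holds the matches of all its windows, each at the distance from its own start, so that a single site can appear more than once. The red marks crowd in the 150 bases before the start, where 39 of the 47 ISRE matches lie.

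Expected counts per sample ranged from 25310443 to 72003442, with a median of 44804505. NRP1 was lower than in the NT control in all 12 knockdown comparisons and called in 11, with HS578T shNRP1#3 (log2 fold change -1.59, edgeR adjusted p = 0.069) as the exception. Of the markers that claudin-low cells lack, CLDN3 reached 9.36 CPM (counts relative to library size, after TMM normalisation), CLDN7 53.7, CDH1 9.11 and CLDN4 292 over the 52 samples, and of those they express, VIM stood at 1519 CPM or more and ZEB1 at 6.90 or more. HS578T siNRP1#5 stood apart. Genes that are near 0 in HS578T NT controls and abundant in those of MDA-MB-231 were present at 17.1, 14.3 and 8.65% of the level they have in MDA-MB-231, in its 3 libraries (median of 83 genes), and replicate 2 also held 4.87% of the level of 28 genes that only SUM159PT expressed. The same MDA-MB-231 measure was 2.11, 2.72 and 5.33% in HS578T siNRP1#3 and 1.41% in HS578T siNT replicate 3, and MDA-MB-231 shNRP1#3 replicate 3 held 2.77% of SUM159PT and 3.21% of HS578T. By genes that only the source line expressed, as for the 4.87%, that last library held 1.40% of SUM159PT and 2.06% of HS578T. Results on these groups are given with and without the libraries or the MDA-MB-231 share. RNA came from whole cultures, so that fewer cells expressing a gene and less of its RNA per cell cannot be told apart.

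In the NT controls, most members had their lowest median level in HS578T. Their summed TPM did not follow this order, at 3240 to 9018 per library in HS578T, 3463 to 4970 in MDA-MB-231 and 3460 to 8618 in SUM159PT. Among the 43 members, the median level in TPM (transcript abundance scaled for gene length and library size, which allows comparison between genes) was highest in SUM159PT for 30, in MDA-MB-231 for 11 and in HS578T for 2, and it was lowest in HS578T for 34. For 21 members all 6 HS578T NT libraries lay under the other 12. These counts of rank and of libraries apart were not made over all genes, so that they have no background beside them. In SUM159PT against MDA-MB-231, 32 of 43 tested members were called, 4 lower and 28 higher, beside 61.7% of all genes tested, 28.3% lower and 33.4% higher, with a median log2 fold change of 0.92 over the members and 0.067 over all genes. In HS578T against MDA-MB-231, 35 of 43 tested members were called, 26 lower and 9 higher, beside 73.2% of all genes tested, 36.8% lower and 36.4% higher, and the median was -1.574 over the members and -0.009 over all genes (-1.564 over the members with CXCL11 at its bound, below). In HS578T against SUM159PT, 39 of 43 tested members were called, 37 lower and 2 higher, beside 66.4% of all genes tested, 35.5% lower and 31% higher, with a median of -2.886 over the members and -0.087 over all genes. The same NT libraries enter these 3 comparisons. The share of all genes that differed between lines was itself large, in both directions, while the called members of HS578T were mostly lower.

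**Figure D2:**
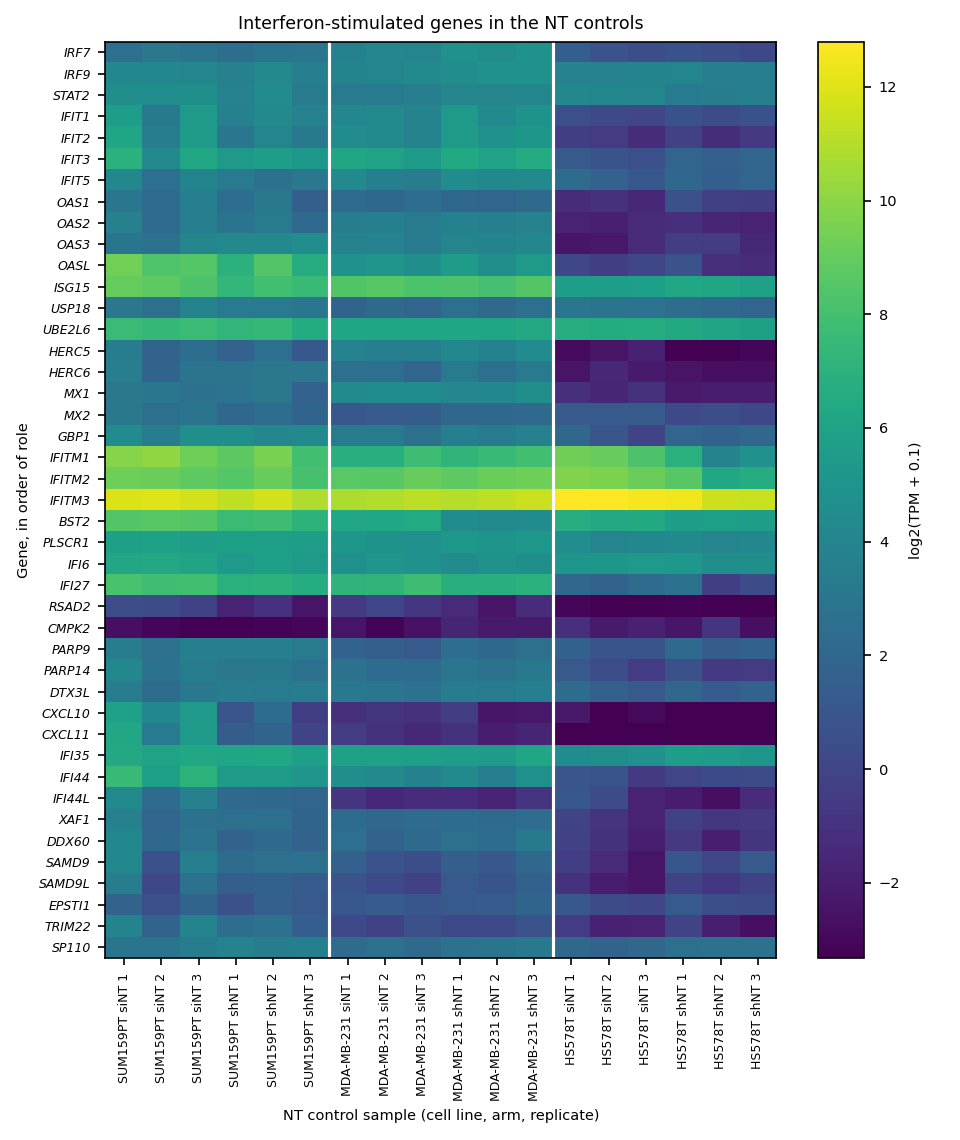
Levels of the 43 members in the 18 NT libraries, as log2(TPM + 0.1), with genes in rows by role and libraries in columns by cell line. Dark cells are low and bright cells high. HS578T columns are darkest over the IFIT and OAS genes, HERC5, HERC6 and MX1, and IFITM3 is the brightest row in all 3 lines, at a median of 3265 TPM (SUM159PT), 2231 TPM (MDA-MB-231) and 5848 TPM (HS578T).

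Levels below are the lowest, the median and the highest of the 6 NT libraries of a line. HERC5, the ligase that joins ISG15 to proteins, was at 0, 0.03 and 0.18 TPM in HS578T, 2.04, 4.48 and 11.2 in SUM159PT and 11.7, 13.7 and 21.8 in MDA-MB-231. HS578T lay under both other lines without overlap, and SUM159PT lay under MDA-MB-231 (log2 fold change -1.26 ± 0.30 SE, edgeR adjusted p = 0.00141). The mean was 29.6 ± 6.22 CPM in MDA-MB-231 and 0.177 ± 0.234 in HS578T (SD, n = 6 each), a ratio of 167.4, while the fitted differences of HS578T from MDA-MB-231 (edgeR adjusted p = 4e-11) and SUM159PT (adjusted p = 5.62e-10) have a size that depends on the prior count, because the HS578T libraries had 0 to 19 expected counts. HERC6, a relative of HERC5, was at 0.06, 0.08 and 0.24 TPM in HS578T, 3.57, 7.76 and 12 in SUM159PT and 3.77, 5.92 and 10.2 in MDA-MB-231. It was lower in HS578T than in MDA-MB-231 by a log2 fold change of -5.85 ± 0.33 (SE, edgeR adjusted p = 2.71e-11) and than in SUM159PT by -6.41 ± 0.33 (adjusted p = 1.74e-11).

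MX1, a dynamin-like GTPase that traps viral ribonucleoproteins, was at 0.12, 0.19 and 0.4 TPM in HS578T, 3.29, 7.5 and 8.4 in SUM159PT and 17.3, 21 and 24.6 in MDA-MB-231, in the order of all 3 lines without overlap (log2 fold change -5.84 ± 0.26 SE, edgeR adjusted p = 1.26e-12, for HS578T against MDA-MB-231). OAS3, which makes the oligoadenylates that activate RNase L, was at 0.1, 0.26 and 0.67 TPM in HS578T and 10.1, 15 and 17.2 in MDA-MB-231 (log2 fold change -5.63 ± 0.30 SE, edgeR adjusted p = 1.33e-11). In SUM159PT OAS3 was at 6.31, 17.6 and 23.3 TPM, within reach of MDA-MB-231 (log2 fold change 0.42, not called). OASL, a relative without synthetase activity, was at 101, 337 and 662 TPM in SUM159PT, 25, 32.1 and 47.7 in MDA-MB-231 and 0.31, 0.835 and 1.62 in HS578T. The 3 ranges of OASL were apart, with SUM159PT over MDA-MB-231 by a log2 fold change of 3.52 ± 0.36 (SE, edgeR adjusted p = 1.71e-07) and HS578T under SUM159PT by -8.07 ± 0.46 (adjusted p = 8.08e-11).

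The chemokines CXCL10 and CXCL11, which attract T cells through the receptor CXCR3, were highest in SUM159PT. CXCL10 was at 0.7, 11.7 and 59.5 TPM in SUM159PT and 0.1, 0.375 and 0.67 in MDA-MB-231 (log2 fold change 5.23 ± 0.55 SE, edgeR adjusted p = 4.94e-07). CXCL11 was at 0.88, 6.69 and 77.3 TPM in SUM159PT and 0.14, 0.34 and 0.61 in MDA-MB-231 (log2 fold change 5.43 ± 0.55 SE, edgeR adjusted p = 1.02e-06). CXCL11 had 0 counts in all 6 HS578T NT libraries, where 3 counts per library correspond to 0.0928 CPM on average, so that its mean was at least 270.4-fold higher in SUM159PT (edgeR adjusted p = 1.67e-07) and at least 2.96-fold higher in MDA-MB-231 (adjusted p = 0.00159). The SUM159PT bound was 137-fold without siNT replicate 1, and it was 514.5-fold for siNT and 26.4-fold for shNT. CXCL10 had 4 expected counts over all 6 HS578T NT libraries, and its fitted difference from SUM159PT (adjusted p = 8.87e-08) has a size that depends on the prior count of the fit. Both chemokines spread widely over the SUM159PT NT libraries. IFI44L, of unknown biochemical function, was at 3.65, 4.79 and 21.1 TPM in SUM159PT, 0.2, 0.315 and 0.46 in MDA-MB-231 and 0.06, 0.255 and 1.97 in HS578T (log2 fold change 4.57 ± 0.39 SE, edgeR adjusted p = 1.28e-08, SUM159PT against MDA-MB-231). BST2, the tetherin that holds budding virus on the cell surface, was at 135, 289 and 391 TPM in SUM159PT, 20.6, 51.1 and 92.2 in MDA-MB-231 and 51.1, 70.3 and 107 in HS578T (log2 fold change 3.01 ± 0.13 SE, edgeR adjusted p = 1.54e-12).

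Not every member followed the order with HS578T lowest. IFITM3, which blocks virus entry at endosomes, was highest in HS578T, with 2793, 5848 and 7101 TPM against 1822, 2231 and 2884 in MDA-MB-231 (log2 fold change 1.97 ± 0.19 SE, edgeR adjusted p = 3.57e-08). CMPK2, a nucleotide kinase, was low in all lines and highest in HS578T, at 0.06, 0.15 and 0.47 TPM. RSAD2 (viperin), whose gene lies beside CMPK2, was at 0.09, 0.605 and 1.33 TPM in SUM159PT and 0, 0 and 0.02 in HS578T. USP18, which removes ISG15 from proteins and dampens the interferon receptor, was lowest in MDA-MB-231, at 3.64, 4.74 and 5.91 TPM against 3.78, 6.26 and 7.79 in HS578T (log2 fold change 1.08 ± 0.19 SE, edgeR adjusted p = 4.74e-05). IRF9 did not pass the test between any pair of lines, with 12, 17.5 and 18.7 TPM in SUM159PT, 15.1, 21.8 and 29.9 in MDA-MB-231 and 11.8, 14 and 17 in HS578T. IFITM2 did not pass it either, with log2 fold changes of 0.29, 0.47 and 0.17, and its 6 HS578T libraries spread from 82.7 to 871 TPM. The IFITM genes share much sequence, and the same holds in part for the IFIT, OAS and MX genes, so that the split of reads between them by RSEM is uncertain.

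NT libraries of a group differed in how many members stood lowest or highest in them. In SUM159PT siNT, replicate 2 was the lowest of 3 for 24 of 43 members. In the shNT groups, replicate 2 was the highest for 32 members in SUM159PT and the lowest for 31 in MDA-MB-231, and replicate 1 was the highest for 35 in HS578T. These ranks were not counted over all genes either, so that they have no background beside them. Every comparison below rests on these controls, and each member's values are given by replicate in the order of replicate number.

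Between knockdown and NT control the members were called lower more often than higher. Over the 12 comparisons there were 104 calls lower and 24 higher in 496 tests, and without HS578T siNRP1#5 98 lower and 10 higher in 456. Over all genes the same 12 comparisons had 6.01% of 234112 tests called lower and 5.31% higher, and the 11 without HS578T siNRP1#5 had 5.77% lower and 4.87% higher. A call is an edgeR quasi-likelihood test with a Benjamini-Hochberg adjusted p under 0.05 over all genes tested in the line. Both siRNAs of a line share the siNT samples and both shRNAs the shNT samples, so that the 2 comparisons of a pair are not independent. At least 1 call was made for 37 members, and 6 had none (IFIT5, PLSCR1, SAMD9, RSAD2, CMPK2 and CXCL10).

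In SUM159PT with siNRP1#3, 5 of 42 tested members were called, 5 lower and 0 higher, beside 8.66% of all genes tested, 5.5% lower and 3.16% higher, and the median log2 fold change was -0.115 over the members and -0.006 over all genes. The number was 8 without siNT replicate 2 and 3 without siNRP1#3 replicate 1, 2 or 3. With siNRP1#5, 25 of 42 tested members were called, 24 lower and 1 higher, beside 17.9% of all genes tested, 8.89% lower and 9% higher (median -1.253 over the members and 0.007 over all genes). A fit of only these 2 groups, with 5 samples, called 2 members (STAT2 and OAS1), and 13 were called without siNRP1#5 replicate 3. With shNRP1#3, 1 of 42 tested members were called, 1 lower and 0 higher, beside 1.4% of all genes tested, 1.06% lower and 0.339% higher (median -0.253 over the members and 0.033 over all genes), and the call was lost when any of the 6 libraries was left out. With shNRP1#5, 8 of 42 tested members were called, 7 lower and 1 higher, beside 5.94% of all genes tested, 2.7% lower and 3.24% higher (median -0.718 over the members and 0.027 over all genes). Without shNRP1#5 replicate 2 or 3 these were 2 and 4, and without shNT replicate 1 or 2 they were 3 each. Between the controls, shNT against siNT, 12 of 42 tested members were called, 12 lower and 0 higher, beside 14.4% of all genes tested, 8.45% lower and 5.96% higher (median -0.861 over the members and -0.033 over all genes), with 5 and 3 called without shNT replicate 1 or 3 and 6 without siNT replicate 1.

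In MDA-MB-231 with siNRP1#3, 19 of 42 tested members were called, 16 lower and 3 higher, beside 25.7% of all genes tested, 14.3% lower and 11.4% higher (median -0.374 over the members and -0.005 over all genes). With siNRP1#5, 16 of 42 tested members were called, 11 lower and 5 higher, beside 29.4% of all genes tested, 14.9% lower and 14.4% higher (median -0.322 over the members and 0.009 over all genes), and a fit of only these 2 groups called 10. With shNRP1#3, 3 of 42 tested members were called, 3 lower and 0 higher, beside 3.65% of all genes tested, 2.19% lower and 1.46% higher (median -0.124 over the members and 0.017 over all genes). The number was 1 without shNRP1#3 replicate 1 or 2 or shNT replicate 2 or 3, 2 without shNRP1#3 replicate 3, 5 with the replicate number as a block, which here pairs the samples, and 11 in a fit of only these 2 groups. With shNRP1#5, 25 of 42 tested members were called, 25 lower and 0 higher, beside 20.7% of all genes tested, 11.9% lower and 8.79% higher (median -0.843 over the members and 0.019 over all genes). For shNT against siNT, 8 of 42 tested members were called, 2 lower and 6 higher, beside 20.6% of all genes tested, 9.85% lower and 10.7% higher (median 0.142 over the members and -0.005 over all genes), with 5 and 4 called without shNT replicate 1 or 3.

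In HS578T 3 members (RSAD2, CXCL10 and CXCL11) were too low to be tested, as was CMPK2 in the other lines. With siNRP1#3, 1 of 40 tested members were called, 1 lower and 0 higher, beside 4.65% of all genes tested, 2.34% lower and 2.31% higher (median 0.089 over the members and 0.026 over all genes). No member was called without siNRP1#3 replicate 1 or 3 or any of the 3 siNT libraries. None was called once the MDA-MB-231 share was subtracted, from the siNRP1#5 libraries alone or from every HS578T library. Without siNRP1#3 replicate 2, 2 were called. With siNRP1#5, the group that holds MDA-MB-231 RNA, 20 of 40 tested members were called, 6 lower and 14 higher, beside 18.7% of all genes tested, 8.53% lower and 10.1% higher (median 0.717 over the members and 0.03 over all genes), with 13 without siNT replicate 2 or 3. With shNRP1#3, 0 of 40 tested members were called, 0 lower and 0 higher, beside 0.0356% of all genes tested, 0.0305% lower and 0.00509% higher (median 0.012 over the members and 0.003 over all genes). Here 2 members had an unadjusted edgeR p under 0.05, while DESeq2 called 2 and had 3 under an unadjusted p of 0.05. With shNRP1#5, 5 of 40 tested members were called, 5 lower and 0 higher, beside 0.946% of all genes tested, 0.671% lower and 0.275% higher (median -0.255 over the members and 0.004 over all genes). This number was 0 without shNRP1#5 replicate 2 or 3 or shNT replicate 2, 1 without shNT replicate 1 and 0 in a fit of only these 2 groups. For shNT against siNT, 12 of 40 tested members were called, 6 lower and 6 higher, beside 17.9% of all genes tested, 8.8% lower and 9.14% higher (median -0.188 over the members and 0 over all genes), with 4 without shNT replicate 2 or 3 or siNT replicate 1 or 2 and 7 without siNT replicate 3.

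**Figure D3:**
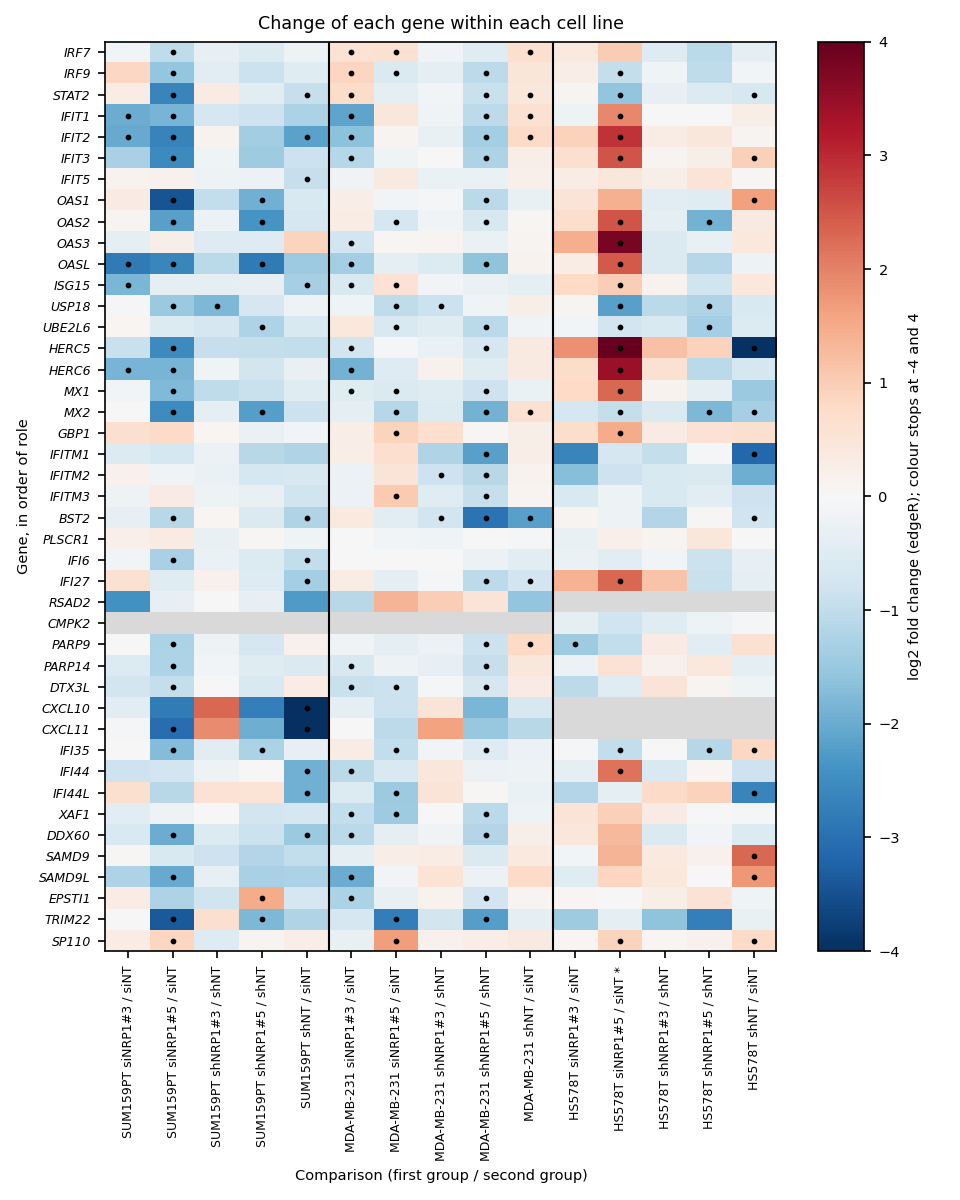
Log2 fold change of each member (rows, by role) in the 12 knockdown comparisons and in shNT against siNT (columns, by cell line), blue lower and red higher than the control, with the colour scale ending at 4 either way. Dots mark calls at an adjusted p under 0.05, grey cells were not tested, and the asterisk marks HS578T siNRP1#5, which holds MDA-MB-231 RNA and is the column with 14 calls higher.

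MX2 and IFI35 were called lower in all 6 comparisons of the #5 sequence, in 3 lines and with both deliveries, and in none of the 6 of #3. Of 39 members tested in all 6, these 2 are 5.13%, beside 8 of 16331 genes (0.049%). For the #3 sequences no gene of the 16331 was called lower in all 6. In HS578T shNRP1#3, a group of 2 samples, 6 of 19661 genes were called lower and NRP1 was not among them. That comparison limits the count for #3, which cannot be set beside the 8 genes of #5. UBE2L6 and OAS2 were called lower in 5 of the 6. In HS578T siNRP1#5 OAS2 was called higher as deposited, and UBE2L6 was not called in SUM159PT siNRP1#5. Whether the #5 and #3 effects differ was not tested. With the #5 sequence, the members lower with siRNA and with shRNA were 6 in SUM159PT (25% of 24 and 85.7% of 7), 9 in MDA-MB-231 (81.8% of 11 and 36% of 25) and 4 in HS578T (66.7% of 6 and 80% of 5). Over all genes these overlaps were 15% and 49.5% in SUM159PT, 18.4% and 23% in MDA-MB-231 and 4.23% and 53.8% in HS578T. With #3 there were 0 in each line, from lists of 5 with siRNA and 1 with shRNA in SUM159PT, 16 and 3 in MDA-MB-231 and 1 and 0 in HS578T, too short to set beside those of #5.

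MX2, a relative of MX1 that acts at nuclear pores, had 16.8, 16.5 and 13.7 CPM in SUM159PT siNT and 3.54 and 1.95 in siNRP1#5 (log2 fold change -2.51 ± 0.46 SE, edgeR adjusted p = 0.00226). In shNT it had 8.72, 11.5 and 6.17 CPM and in shNRP1#5 2.83, 1.05 and 1.8 (log2 fold change -2.19 ± 0.39 SE, edgeR adjusted p = 0.00305). Knockdown and control did not overlap in either pair. MDA-MB-231 had 3.79, 4.45 and 5.05 CPM in siNT and 1.62, 2.08 and 2.26 in siNRP1#5 (log2 fold change -1.14 ± 0.21 SE, edgeR adjusted p = 0.000528), and 6.75, 5.95 and 7.82 in shNT and 2.16, 2.04 and 1.35 in shNRP1#5 (log2 fold change -1.88 ± 0.21 SE, edgeR adjusted p = 1.27e-05). HS578T had 2.03, 1.53 and 1.5 CPM in shNT and 0.497, 0.552 and 0.401 in shNRP1#5 (log2 fold change -1.81 ± 0.32 SE, edgeR adjusted p = 0.0172). The SUM159PT siNRP1#5 call did not hold in a fit of only the 2 groups. The HS578T call did not hold without shNRP1#5 replicate 2 or 3 or shNT replicate 2 (adjusted p 0.0585 to 0.0838), in a fit of only the 2 groups (adjusted p 0.0713) or after subtraction of the MDA-MB-231 siNT profile (0.0676). Here and below, unless made from every HS578T library, subtraction changed only the siNRP1#5 libraries. These are in neither group of the other HS578T comparisons and enter them only through the fit of the whole line. The CPM of MX2 in HS578T siNRP1#5 were 1.53, 2.82 and 2.32, against 4.09, 4.52 and 4.32 in siNT (log2 fold change -0.96 ± 0.30 SE, edgeR adjusted p = 0.0342). In this group, which holds MDA-MB-231 RNA, the call did not hold after subtraction of the siNRP1#5 profile (adjusted p = 0.0764), with no filter on low counts, without siNRP1#5 replicate 1 or 3 or without siNT replicate 1, 2 or 3.

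IFI35, a leucine zipper protein that binds NMI, had 65.4, 58 and 57.4 CPM in SUM159PT siNT and 25.2 and 10.9 in siNRP1#5 (log2 fold change -1.73 ± 0.34 SE, edgeR adjusted p = 0.00326). With shRNA it had 53, 56.1 and 37.4 CPM in shNT and 26.7, 19 and 14.4 in shNRP1#5 (log2 fold change -1.25 ± 0.29 SE, edgeR adjusted p = 0.0154). In MDA-MB-231 the values were 34.6, 39.1 and 34.3 in siNT and 12.1, 18.9 and 23.2 in siNRP1#5 (log2 fold change -0.98 ± 0.18 SE, edgeR adjusted p = 0.000342). They were 27.1, 28.8 and 37.1 in shNT and 24.1, 19.9 and 21.3 in shNRP1#5 (log2 fold change -0.50 ± 0.17 SE, edgeR adjusted p = 0.0467), a smaller difference without overlap. In HS578T IFI35 had 55.5, 51.1 and 33.8 CPM in shNT and 28.4, 18.5 and 17.3 in shNRP1#5 (log2 fold change -1.14 ± 0.26 SE, edgeR adjusted p = 0.046). The HS578T shRNA call lay close to the threshold and did not hold without shNRP1#5 replicate 2 or 3 or shNT replicate 1 or 2 (adjusted p 0.128 to 0.234), in a fit of only the 2 groups (0.0841), without the HS578T siNRP1#5 libraries (0.0821) or after the subtractions (0.0585 to 0.13). The other calls of IFI35 were lost in SUM159PT siNRP1#5 in a fit of only the 2 groups, in SUM159PT shRNA without shNRP1#5 replicate 2 or 3 or shNT replicate 1 or 2, in MDA-MB-231 shRNA without shNRP1#5 replicate 1, 2 or 3 or shNT replicate 2 or 3, and in HS578T siNRP1#5 without siNRP1#5 replicate 1 or 2 or siNT replicate 2 or 3.

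**Figure D4:**
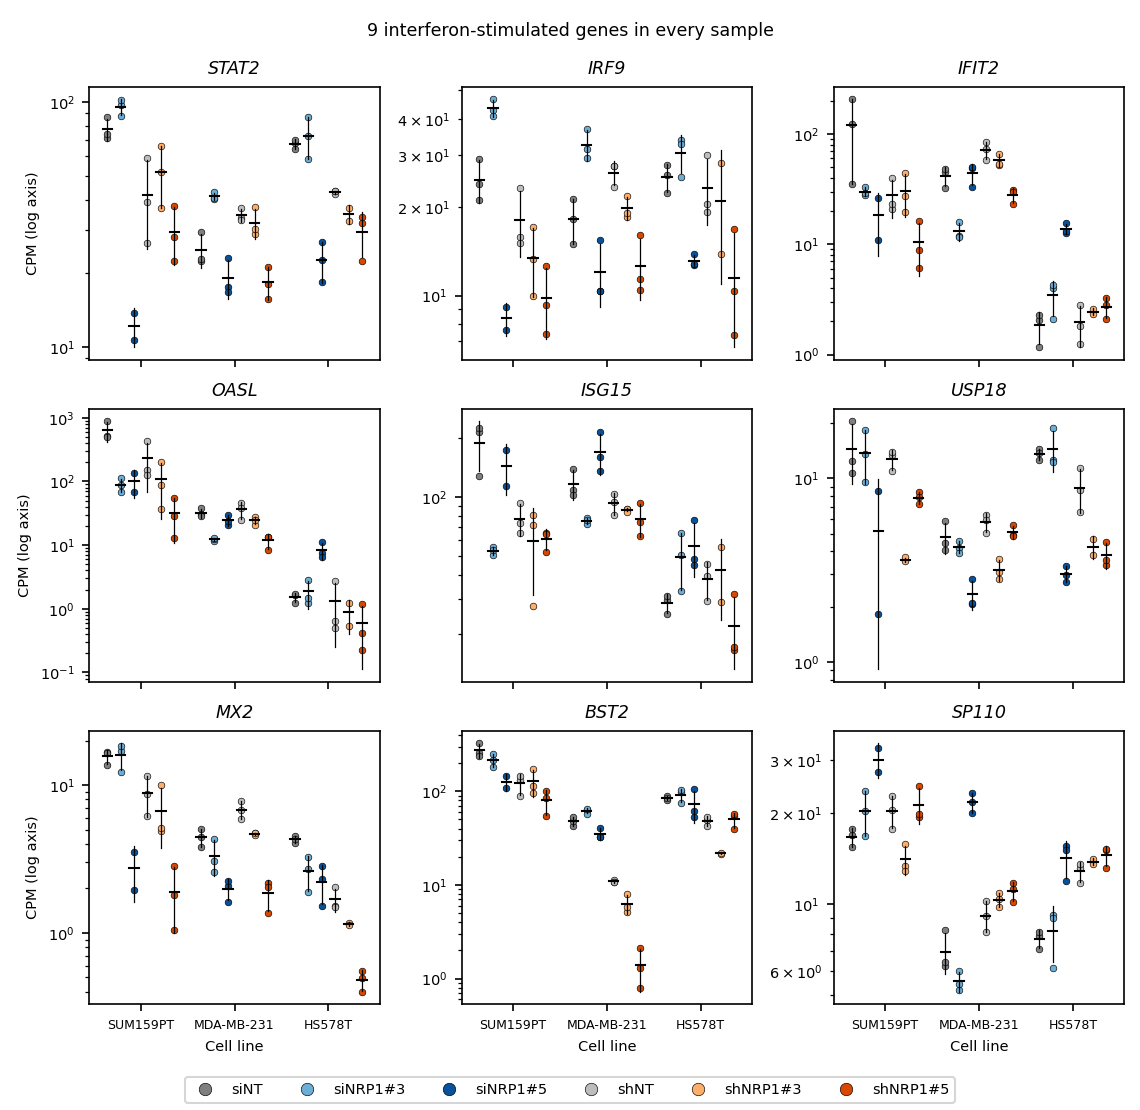
CPM (log axis) of 9 members in the 52 samples, by cell line and group, with a point for each sample and a bar for the mean ± SD of a group. STAT2, IRF9, MX2 and IFIT2 fall in SUM159PT siNRP1#5, BST2 falls in MDA-MB-231 shNRP1#5, SP110 is higher in siNRP1#5 of all 3 lines, and the dark blue points of HS578T are siNRP1#5, which holds MDA-MB-231 RNA.

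Among the transcription factors of the pathway in SUM159PT siNRP1#5, STAT2 had the largest fold change. It had 71.5, 86.8 and 73.8 CPM in SUM159PT siNT, 96.9, 102 and 87.6 in siNRP1#3 and 10.7 and 13.8 in siNRP1#5 (log2 fold change -2.65 ± 0.35 SE, edgeR adjusted p = 0.000292, for siNRP1#5). The siNRP1#5 samples lay under every siNT sample, while the siNRP1#3 samples lay over them without passing the test (adjusted p = 0.53). IRF9, the DNA-binding part of ISGF3, had 24, 29.2 and 21.1 CPM in siNT, 42.7, 46.7 and 40.9 in siNRP1#3 and 7.61 and 9.15 in siNRP1#5 (log2 fold change -1.56 ± 0.30 SE, edgeR adjusted p = 0.00325, for siNRP1#5). The siNRP1#3 difference of IRF9, 0.81 on the log2 scale, did not pass (adjusted p = 0.0579). IRF7, which drives interferon genes once phosphorylated, fell as well (log2 fold change -1.01 ± 0.32 SE, edgeR adjusted p = 0.0394).

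In MDA-MB-231 with siNRP1#3, all 3 of these factors rose while 16 other members fell. STAT2 went from 22.5, 23 and 29.5 CPM in siNT to 42.9, 40.3 and 40.8 (log2 fold change 0.75 ± 0.15 SE, edgeR adjusted p = 0.000921). IRF9 went from 15, 18.3 and 21.3 to 31.6, 29.3 and 37 (log2 fold change 0.86 ± 0.18 SE, edgeR adjusted p = 0.00146) and IRF7 from 13.3, 18.2 and 16.1 to 23.8, 20.6 and 24.8 (log2 fold change 0.56 ± 0.19 SE, edgeR adjusted p = 0.0382). With shNRP1#5, IRF9 (log2 fold change -1.05 ± 0.18 SE, edgeR adjusted p = 0.000537) and STAT2 (log2 fold change -0.90 ± 0.15 SE, edgeR adjusted p = 0.000339) fell. IRF7 had 27.6, 22.2 and 26.7 CPM in shNT, over its siNT values (log2 fold change 0.66 ± 0.19 SE, edgeR adjusted p = 0.0204), a call that did not hold without shNT replicate 1 or 3 or siNT replicate 1 (adjusted p 0.0674 to 0.0895). With siNRP1#5 IRF7 was called higher (0.60 ± 0.19) and IRF9 lower (-0.58 ± 0.18) on the log2 scale, with samples that overlapped siNT in both.

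Of the 4 IFIT genes, whose proteins bind foreign RNA ends and block translation, 2 fell in SUM159PT and 3 in MDA-MB-231 with siNRP1#3. IFIT2 had 207, 35.2 and 122 CPM in SUM159PT siNT, 33.1, 27.8 and 29.4 in siNRP1#3 and 26.2 and 11 in siNRP1#5. Its siNT samples spread widely, with replicate 2 the lowest, and every sample of both siRNAs lay under that replicate. Log2 fold changes were -2.0 ± 0.54 (SE, edgeR adjusted p = 0.0307) and -2.69 ± 0.65 (adjusted p = 0.0116). The first did not hold without siNRP1#3 replicate 1, 2 or 3 or siNT replicate 1 or 3 (adjusted p 0.0514 to 0.128) or in a fit of only the 2 groups (0.0537), and the second did not hold without siNRP1#5 replicate 3 (adjusted p 0.0946) or in that fit (0.103). In MDA-MB-231 IFIT2 had 45.1, 47.6 and 32.5 CPM in siNT and 12, 15.8 and 11.5 in siNRP1#3 (log2 fold change -1.65 ± 0.20 SE, edgeR adjusted p = 1.11e-05). In siNRP1#5 it had 48.9, 50.6 and 33.2, over the same range as siNT.

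IFIT1 had 173, 38.4 and 142 CPM in SUM159PT siNT and 34.6, 22.6 and 30.8 in siNRP1#3 (log2 fold change -1.99 ± 0.45 SE, edgeR adjusted p = 0.0123). The call did not hold without siNRP1#3 replicate 2 (adjusted p 0.0504). In MDA-MB-231 it had 47.9, 58.5 and 42.9 in siNT and 9.55, 13.4 and 10.8 in siNRP1#3 (log2 fold change -2.12 ± 0.22 SE, edgeR adjusted p = 1.67e-06), with all 3 siNRP1#3 samples under siNT. IFIT3, which stabilises IFIT1, fell with siNRP1#3 in MDA-MB-231 (-1.14 ± 0.20) and with siNRP1#5 in SUM159PT (-2.56 ± 0.62) on the log2 scale. With shNRP1#5 in MDA-MB-231, IFIT1 (-1.06 ± 0.21), IFIT2 (-1.35 ± 0.20) and IFIT3 (-1.24 ± 0.20) all fell. IFIT5 was called in no knockdown, with log2 fold changes in SUM159PT of 0.14 and 0.18 for the siRNAs.

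The NT controls of IFIT2 differed by line. In SUM159PT shNT it had 20.8, 40.2 and 23 CPM, lower than in siNT (log2 fold change -2.14 ± 0.54 SE, edgeR adjusted p = 0.0191) although shNT replicate 2 overlapped siNT replicate 2. That call did not hold without shNT replicate 1 or 3 or siNT replicate 1 (adjusted p 0.0752 to 0.0925). In MDA-MB-231 shNT it had 84.1, 58.5 and 72.7, higher than in siNT (log2 fold change 0.75 ± 0.20 SE, edgeR adjusted p = 0.0101), and that call did not hold without shNT replicate 1 or siNT replicate 3 (adjusted p 0.0531 to 0.059).

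Among the OAS genes, OASL fell with 3 of the 4 knockdowns in SUM159PT. OASL, which aids RIGI instead of making oligoadenylates, had 887, 517 and 495 CPM in siNT, 88.4, 112 and 68.7 in siNRP1#3 and 136 and 68.2 in siNRP1#5. In shNT it had 154, 427 and 126 and in shNRP1#5 56, 13 and 28.4. The shNRP1#5 samples lay under every shNT sample and the siRNA samples under every siNT sample. Log2 fold changes were -2.81 ± 0.64 for siNRP1#3 (SE, edgeR adjusted p = 0.0129), -2.62 ± 0.74 for siNRP1#5 (0.0244) and -2.83 ± 0.64 for shNRP1#5 (0.0155). The siNRP1#3 call did not hold without siNRP1#3 replicate 1 or 3 (adjusted p 0.0577 to 0.0618), nor the shNRP1#5 call without shNRP1#5 replicate 2 or shNT replicate 2 (adjusted p 0.0782 to 0.0785). MDA-MB-231 had 30.3, 38.1 and 28.3 CPM of OASL in siNT and 11.4, 12.7 and 12.9 in siNRP1#3 (log2 fold change -1.36 ± 0.22 SE, edgeR adjusted p = 0.000225). There it had 45.6, 24.6 and 39 in shNT and 13.7, 13.6 and 8.35 in shNRP1#5 (log2 fold change -1.61 ± 0.22 SE, edgeR adjusted p = 9.78e-05), without overlap in either pair.

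OAS1, a synthetase that senses double-stranded RNA, had 10.4, 7.54 and 15.8 CPM in SUM159PT siNT and 0.848 and 1.18 in siNRP1#5 (log2 fold change -3.45 ± 0.58 SE, edgeR adjusted p = 0.00145). In shNT it had 7.25, 11.3 and 3.79 and in shNRP1#5 2.78, 1.67 and 1.31 (log2 fold change -1.92 ± 0.46 SE, edgeR adjusted p = 0.0197). The shNRP1#5 call did not hold without shNRP1#5 replicate 2 or 3 or shNT replicate 1 or 2 (adjusted p 0.0566 to 0.104). OAS2, a synthetase with a doubled domain, had 20.7, 29 and 13.5 CPM in SUM159PT shNT and 6.69, 2.89 and 2.47 in shNRP1#5 (log2 fold change -2.36 ± 0.44 SE, edgeR adjusted p = 0.00411). In HS578T OAS2 had 1.11, 0.841 and 0.50 in shNT and 0.166, 0.245 and 0.238 in shNRP1#5 (log2 fold change -1.90 ± 0.40 SE, edgeR adjusted p = 0.0361), at levels near or under 1 CPM. This call did not hold without shNRP1#5 replicate 1, 2 or 3 or shNT replicate 1 or 2 (adjusted p 0.0583 to 0.162), in a fit of only the 2 groups (0.0833), without the siNRP1#5 libraries (0.062) or after the subtractions (0.0743 to 0.275). OAS3 fell with siNRP1#3 in MDA-MB-231 (-0.78 ± 0.13 on the log2 scale) and was not called in SUM159PT, where siNRP1#5 had 0.23 (adjusted p = 0.665).

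ISG15, a ubiquitin-like protein joined to new proteins, had 215, 225 and 127 CPM in SUM159PT siNT, 55.4, 50.4 and 53.2 in siNRP1#3 and 173 and 114 in siNRP1#5. It fell with siNRP1#3 (log2 fold change -1.83 ± 0.33 SE, edgeR adjusted p = 0.00296), whose samples all lay under siNT. The siNRP1#5 difference was -0.39 (adjusted p = 0.483). In MDA-MB-231 ISG15 fell with siNRP1#3 (-0.60 ± 0.17) and was called higher with siNRP1#5 (0.57 ± 0.16) on the log2 scale, the latter with samples of 136, 214 and 159 CPM that overlapped siNT at 109, 139 and 102. HERC6 had 32.9, 11.8 and 20.9 CPM in SUM159PT siNT and 8.26, 3.95 and 5.77 in siNRP1#3 (log2 fold change -1.86 ± 0.33 SE, edgeR adjusted p = 0.00282). In MDA-MB-231 it had 12.6, 14.5 and 8.95 in siNT and 2.67, 3.81 and 3.16 in siNRP1#3 (log2 fold change -1.88 ± 0.26 SE, edgeR adjusted p = 3.66e-05). HERC6 samples of siNRP1#3 lay under siNT in both lines.

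USP18 fell with shRNA of both sequences, in different lines. In SUM159PT it had 13.4, 13.9 and 10.9 CPM in shNT and 3.58, 3.53 and 3.71 in shNRP1#3 (log2 fold change -1.81 ± 0.41 SE, edgeR adjusted p = 0.0323), the only member called there. The call did not hold without shNRP1#3 replicate 1, 2 or 3 or shNT replicate 1, 2 or 3 (adjusted p 0.051 to 0.152). In MDA-MB-231 it had 6.32, 5.02 and 5.95 in shNT and 2.84, 3.07 and 3.64 in shNRP1#3 (log2 fold change -0.85 ± 0.17 SE, edgeR adjusted p = 0.00784). In HS578T it had 11.4, 8.63 and 6.58 in shNT and 4.51, 3.39 and 3.57 in shNRP1#5 (log2 fold change -1.22 ± 0.25 SE, edgeR adjusted p = 0.0337). The HS578T call did not hold without shNRP1#5 replicate 2 or 3 or shNT replicate 1 or 2 (adjusted p 0.11 to 0.191), in a fit of only the 2 groups (0.0795), without the siNRP1#5 libraries (0.0603) or after subtraction of the MDA-MB-231 siNT profile (0.0589). UBE2L6, the conjugating enzyme for ISG15, had 99.9, 72.9 and 56.3 CPM in HS578T shNT and 38.2, 28.5 and 22.2 in shNRP1#5 (log2 fold change -1.37 ± 0.26 SE, edgeR adjusted p = 0.0215). Its call did not hold without shNRP1#5 replicate 2 or 3 or shNT replicate 1 or 2 (adjusted p 0.0739 to 0.132) or in a fit of only the 2 groups (0.0763). With #5 UBE2L6 also fell in SUM159PT shRNA (-1.23 ± 0.31) and MDA-MB-231 siRNA (-0.61 ± 0.18) and shRNA (-1.06 ± 0.18) on the log2 scale.

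HERC5 in HS578T lay near the floor of the counts. It had 0.114, 0.292 and 0.599 CPM in siNT and 0, 0 and 0.0555 in shNT, which are 32 and 2 expected counts over 3 libraries each (log2 fold change -3.96 ± 0.93 SE, edgeR adjusted p = 0.00898). The ratio of these counts, shNT over siNT, was 0.0526 with a 95% interval from counting alone of 0.0061 to 0.206. After subtraction of the MDA-MB-231 share from every HS578T library the adjusted p was 0.566. In SUM159PT HERC5 fell with siNRP1#5 (log2 fold change -2.54 ± 0.55 SE, edgeR adjusted p = 0.0057) and in MDA-MB-231 with siNRP1#3 (-0.74 ± 0.17) and shNRP1#5 (-0.67 ± 0.17) on the log2 scale.

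Among the GTPases, MX1 fell in SUM159PT with siNRP1#5 and in MDA-MB-231 with 3 of the 4 knockdowns. It had 16.8, 19.7 and 12.8 CPM in SUM159PT siNT and 5.66 and 3.99 in siNRP1#5 (log2 fold change -1.76 ± 0.41 SE, edgeR adjusted p = 0.00847). In MDA-MB-231 the log2 fold changes were -0.50 ± 0.15 for siNRP1#3, -0.58 ± 0.15 for siNRP1#5 and -0.84 ± 0.15 for shNRP1#5. GBP1, a guanylate-binding protein that coats intracellular pathogens, was called higher with siNRP1#5 in MDA-MB-231, from 15.8, 16.8 and 10.5 CPM in siNT to 30.7, 27.9 and 19.8 (log2 fold change 0.88 ± 0.20 SE, edgeR adjusted p = 0.00214).

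Of the 7 membrane proteins, 5 fell in MDA-MB-231 with shNRP1#5. BST2 had 42.7, 48.6 and 53.3 CPM in siNT, 11.2, 10.6 and 10.8 in shNT, 5.15, 5.85 and 7.95 in shNRP1#3 and 2.1, 1.29 and 0.783 in shNRP1#5. The 4 groups stood in steps without overlap between neighbours. Log2 fold changes were -2.94 ± 0.23 for shNRP1#5 against shNT (SE, edgeR adjusted p = 3.29e-07), -0.78 ± 0.21 for shNRP1#3 (adjusted p = 0.0471) and -2.18 ± 0.21 for shNT against siNT (adjusted p = 2.64e-06). The shNRP1#3 call did not hold without shNRP1#3 replicate 1 or 2 or shNT replicate 1, 2 or 3 (adjusted p 0.114 to 0.192), and held without shNRP1#3 replicate 3, which contained RNA of the other lines. In SUM159PT BST2 fell with siNRP1#5 (-1.10 ± 0.32) and in HS578T it was called in no knockdown.

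IFITM1 had 41.8, 56.4 and 66.4 CPM in MDA-MB-231 shNT and 16.5, 9.92 and 9.45 in shNRP1#5 (log2 fold change -2.19 ± 0.50 SE, edgeR adjusted p = 0.00826). IFITM2 had 143, 178 and 185 in shNT and 85.9, 98 and 101 in shNRP1#3 (log2 fold change -0.83 ± 0.20 SE, edgeR adjusted p = 0.0285), a call that did not hold without shNRP1#3 replicate 1, 2 or 3 or shNT replicate 2 or 3 (adjusted p 0.0799 to 0.118). IFITM2 (-1.09 ± 0.21) and IFITM3 (-0.92 ± 0.21) also fell with shNRP1#5 on the log2 scale, while IFITM3 was called higher with siNRP1#5 (1.03 ± 0.21). Because reads of the 3 genes can be exchanged in the quantification, the share of each is uncertain. In HS578T IFITM1 had 291, 281 and 167 CPM in siNT and 63.2, 8.31 and 13.3 in shNT (log2 fold change -3.13 ± 0.85 SE, edgeR adjusted p = 0.0208), where shNT replicate 1 stood far above the others. That call did not hold without shNT replicate 2 or 3 or siNT replicate 1 (adjusted p 0.0576 to 0.0892).

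IFI27, a mitochondrial and membrane protein, had 38.2, 44.6 and 64.1 CPM in MDA-MB-231 siNT and 29.2, 28.9 and 30.8 in shNT (log2 fold change -0.75 ± 0.21 SE, edgeR adjusted p = 0.0159). The call did not hold without shNT replicate 2 or siNT replicate 3 (adjusted p 0.0558 to 0.0972). It was lower still with shNRP1#5, at 16.5, 13.5 and 13 CPM (log2 fold change -1.04 ± 0.21 SE, edgeR adjusted p = 0.0024). IFI6, which acts against cell death at the endoplasmic reticulum, fell in SUM159PT siNRP1#5 (-1.29 ± 0.28 on the log2 scale). PLSCR1, a phospholipid scramblase, was called in no knockdown, with log2 fold changes of 0.34 in SUM159PT and -0.10 in MDA-MB-231 for siNRP1#5.

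PARP9, PARP14 and DTX3L, which add ADP-ribose and ubiquitin to proteins, all fell in 2 comparisons. In SUM159PT siNRP1#5 the log2 fold changes were -1.27 ± 0.30, -1.24 ± 0.38 and -0.95 ± 0.32. In MDA-MB-231 shNRP1#5 they were -0.85 ± 0.17, -0.93 ± 0.17 and -0.67 ± 0.14. The PARP14 samples of SUM159PT siNRP1#5 overlapped siNT, and the DTX3L call of that comparison lay at the threshold. None of these genes was called there in a fit of only the 2 groups. PARP9 and DTX3L share the ISRE letters shown above. In HS578T, PARP9 had 10.9, 7.12 and 7.03 CPM in siNT and 3.41, 4.03 and 1.97 in siNRP1#3 (log2 fold change -1.41 ± 0.37 SE, edgeR adjusted p = 0.0381), the only member called with siNRP1#3. The call did not hold without siNRP1#3 replicate 1 or 3 or siNT replicate 1, 2 or 3 (adjusted p 0.0597 to 0.131) or after subtraction of the MDA-MB-231 profiles (0.0599 to 0.0852). In MDA-MB-231 PARP9 had 6.19, 6.04 and 5.08 CPM in siNT and 10.8, 8.41 and 11.5 in shNT (log2 fold change 0.80 ± 0.17 SE, edgeR adjusted p = 0.00227).

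The chemokines differed between the 2 SUM159PT controls as well as with knockdown. CXCL11 had 87, 13.1 and 43 CPM in siNT, 2.8, 3.69 and 0.856 in shNT and 9.66 and 1.83 in siNRP1#5. The log2 fold change was -4.30 ± 0.76 for shNT against siNT (SE, edgeR adjusted p = 0.00465) and -3.04 ± 0.85 for siNRP1#5 (adjusted p = 0.0225). The second call did not hold without siNRP1#5 replicate 3 or siNT replicate 1 (adjusted p 0.078 to 0.137) or in a fit of only the 2 groups (0.127). CXCL10 had 51.9, 19 and 33.8 CPM in siNT and 1.51, 4.09 and 0.576 in shNT (log2 fold change -4.11 ± 0.87 SE, edgeR adjusted p = 0.00994), a call that did not hold without shNT replicate 3 (adjusted p 0.0562). With siNRP1#5 CXCL10 had 9.02 and 0.887 CPM (adjusted p = 0.0561). Of RSAD2 and CMPK2, no call was made in any knockdown, and RSAD2 in SUM159PT had 3.49, 3.67 and 1.36 CPM in siNT and 3.72 and 0.791 in siNRP1#5.

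TRIM22, a ubiquitin ligase that restricts retroviruses, fell with the #5 sequence in 4 comparisons. It had 22.5, 9.38 and 18.4 CPM in SUM159PT siNT and 2.3 and 0.926 in siNRP1#5 (log2 fold change -3.37 ± 0.64 SE, edgeR adjusted p = 0.00304), a call that a fit of only the 2 groups did not give (0.059). In shNT it had 7.55, 9.77 and 4.76 and in shNRP1#5 3.48, 1.67 and 1.06 (log2 fold change -1.80 ± 0.51 SE, edgeR adjusted p = 0.0484). The shRNA call was at the threshold and did not hold without shNRP1#5 replicate 2 or 3 or shNT replicate 1, 2 or 3 (adjusted p 0.051 to 0.206), with RLE size factors (0.0502) or in a fit of only the 2 groups (0.0625). In MDA-MB-231 TRIM22 had 1.47, 1.6 and 1.78 CPM in siNT and 0.365, 0.102 and 0.216 in siNRP1#5 (log2 fold change -2.76 ± 0.34 SE, edgeR adjusted p = 6.58e-06). There it had 1.08, 1.12 and 1.66 in shNT and 0.333, 0.17 and 0.316 in shNRP1#5 (log2 fold change -2.19 ± 0.32 SE, edgeR adjusted p = 0.00013), and neither pair overlapped.

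SP110, a nuclear body protein, was called higher with siNRP1#5 in all 3 lines. It had 6.26, 8.19 and 6.43 CPM in MDA-MB-231 siNT and 21.9, 23.4 and 20.0 in siNRP1#5 (log2 fold change 1.67 ± 0.14 SE, edgeR adjusted p = 5.68e-08). In SUM159PT it had 15.4, 16.9 and 17.8 in siNT and 27.3 and 33 in siNRP1#5 (log2 fold change 0.86 ± 0.22 SE, edgeR adjusted p = 0.0126), and in HS578T 7.87, 7.12 and 8.1 and 15.6, 15.2 and 11.9 (log2 fold change 0.88 ± 0.21 SE, edgeR adjusted p = 0.00976). With shNRP1#5, the same sequence, SP110 had log2 fold changes of 0.10, 0.28 and 0.17 in SUM159PT, MDA-MB-231 and HS578T and was not called. EPSTI1, a stromal interaction gene first found in breast epithelium, was called higher in SUM159PT shNRP1#5, from 2.46, 4.07 and 2.49 CPM in shNT to 11.1, 7.54 and 6.18 (log2 fold change 1.49 ± 0.38 SE, edgeR adjusted p = 0.0292), and lower in MDA-MB-231 with siNRP1#3 (-1.27 ± 0.18) and shNRP1#5 (-0.77 ± 0.17).

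XAF1, an antagonist of the apoptosis inhibitor XIAP, had 8.7, 7.53 and 8.11 CPM in MDA-MB-231 siNT, 3.29, 3.94 and 4.96 in siNRP1#3 and 2.96, 2.01 and 4.04 in siNRP1#5 (log2 fold change -1.42 ± 0.21 SE, edgeR adjusted p = 6.09e-05, for siNRP1#5). SAMD9L, which arrests translation, had 6.61, 5.13 and 3.27 CPM in MDA-MB-231 siNT and 1.22, 1.47 and 0.997 in siNRP1#3 (log2 fold change -1.99 ± 0.33 SE, edgeR adjusted p = 0.000257). Both siNRP1#3 groups lay under siNT. IFI44L had 0.593, 0.472 and 0.505 CPM in siNT and 0.365, 0.152 and 0.024 in siNRP1#5 (log2 fold change -1.45 ± 0.48 SE, edgeR adjusted p = 0.0296), all under 1 CPM, and the call did not hold without siNRP1#5 replicate 2 or 3 or siNT replicate 1 (adjusted p 0.0807 to 0.0908) or in a fit of only the 2 groups (0.143). IFI44, a relative of IFI44L, fell with siNRP1#3 in MDA-MB-231 (-1.08 ± 0.36 on the log2 scale). DDX60, a helicase that aids RIGI, fell in SUM159PT siNRP1#5 (-1.99 ± 0.55) and in MDA-MB-231 with siNRP1#3 (-1.08 ± 0.29) and shNRP1#5 (-1.16 ± 0.29) on the log2 scale.

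The 2 controls of a line differed in several of these genes. In SUM159PT, IFI44 had 183, 61 and 116 CPM in siNT and 35.1, 34 and 26.9 in shNT (log2 fold change -1.93 ± 0.33 SE, edgeR adjusted p = 0.0038). IFI44L had 32.5, 13.7 and 19.2 and 5.94, 6.0 and 5.52 there (log2 fold change -1.93 ± 0.49 SE, edgeR adjusted p = 0.0182), a call that did not hold without shNT replicate 1 or 3 or siNT replicate 1 (adjusted p 0.0614 to 0.0842). In HS578T SAMD9 and SAMD9L were higher in shNT. SAMD9 had 4.62, 2.36 and 0.694 CPM in HS578T siNT and 14.7, 7.8 and 14.4 in shNT (log2 fold change 2.29 ± 0.60 SE, edgeR adjusted p = 0.0152), not called without shNT replicate 3 or siNT replicate 2 (adjusted p 0.052 to 0.0651). SAMD9L had 2.61, 0.992 and 0.662 and 5.68, 3.52 and 4.72 (log2 fold change 1.74 ± 0.47 SE, edgeR adjusted p = 0.0177), not called without shNT replicate 3 or siNT replicate 2 or 3 (adjusted p 0.0524 to 0.087). IFI44L had 3.48, 1.81 and 0.441 in siNT and 0.461, 0.153 and 0.25 in shNT (log2 fold change -2.65 ± 0.69 SE, edgeR adjusted p = 0.0158), with overlap, and was not called without shNT replicate 2 or 3 or siNT replicate 1 (adjusted p 0.0651 to 0.0895). Delivery, selection and harvest time differ together between shNT and siNT and cannot be told apart.

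HS578T siNRP1#5 was the one knockdown group in which more members were called higher (14) than lower (6). Of the 14, 13 were higher in MDA-MB-231 than in HS578T NT controls and 11 at least 5 times. The members with the largest rise were HERC5, from 0.114, 0.292 and 0.599 CPM in siNT to 6.99, 5.74 and 4.71 (log2 fold change 4.08 ± 0.63 SE, edgeR adjusted p = 0.000572), OAS3, from 0.643, 0.555 and 1.1 to 11.7, 13.9 and 6.74 (log2 fold change 3.80 ± 0.58 SE, edgeR adjusted p = 0.000531), and HERC6, from 0.265, 0.292 and 0.315 to 2.98, 4.3 and 2.47 (log2 fold change 3.46 ± 0.70 SE, edgeR adjusted p = 0.00321). IFIT2 went from 2.04, 2.31 and 1.17 CPM to 12.7, 15.5 and 13.1 (log2 fold change 2.90 ± 0.36 SE, edgeR adjusted p = 0.000151) and IFIT3 from 4.88, 4.67 and 3.85 to 26.1, 32.6 and 18.8 (log2 fold change 2.53 ± 0.31 SE, edgeR adjusted p = 0.00013). No siNRP1#5 library of these 5 genes overlapped siNT.

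The MDA-MB-231 share of each library, times the level of the gene in MDA-MB-231 siNT or siNRP1#5, gives the counts that this RNA brings, and these were subtracted from the HS578T siNRP1#5 libraries. After subtraction 11 members were called with the siNT profile and 12 with the siNRP1#5 profile, and 7 kept the call they had as deposited under both. The share of all genes called after subtraction is not given here. SUM159PT RNA, at 4.87% in replicate 2, was not subtracted, and its part in these calls was not tested. The 7 members that kept their call were GBP1, IFIT2, OAS3 and SP110, higher, and STAT2, USP18 and IFI35, lower. IFIT2 had log2 fold changes of 2.03 (edgeR adjusted p = 0.00689) and 2.03 (0.00731) and OAS3 of 2.22 (0.0469) and 2.30 (0.0373) after the subtractions. HERC5 had 1.99 (0.0588) and 2.55 (0.02), HERC6 2.14 (0.144) and 2.92 (0.02) and IFIT3 1.28 (0.0548) and 1.71 (0.00627). The calls of OASL, ISG15 and IFI27 were lost under both.

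MX1 shows how far the result depends on the subtraction. Its log2 fold change was 2.30 as deposited, -0.07 (adjusted p = 0.962) with the siNRP1#5 profile and -8.09 (adjusted p = 0.000489) with the siNT profile, where its counts end at 0 and the size depends on the prior count. OAS2 went from 2.51 to 0.06 (adjusted p = 0.969) and 1.70 (adjusted p = 0.0234). STAT2 had 64.2, 68.3 and 70.0 CPM in siNT and 22.6, 27 and 18.4 in siNRP1#5 (log2 fold change -1.58 ± 0.21 SE, edgeR adjusted p = 0.000215), and USP18 12.5, 14.4 and 13.7 and 2.73, 3.32 and 2.97 (log2 fold change -2.17 ± 0.26 SE, edgeR adjusted p = 0.000127). Both are less abundant in MDA-MB-231 than in HS578T NT controls, and after subtraction they stood at -1.56 and -2.33 (siNT profile).

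**Figure D5:**
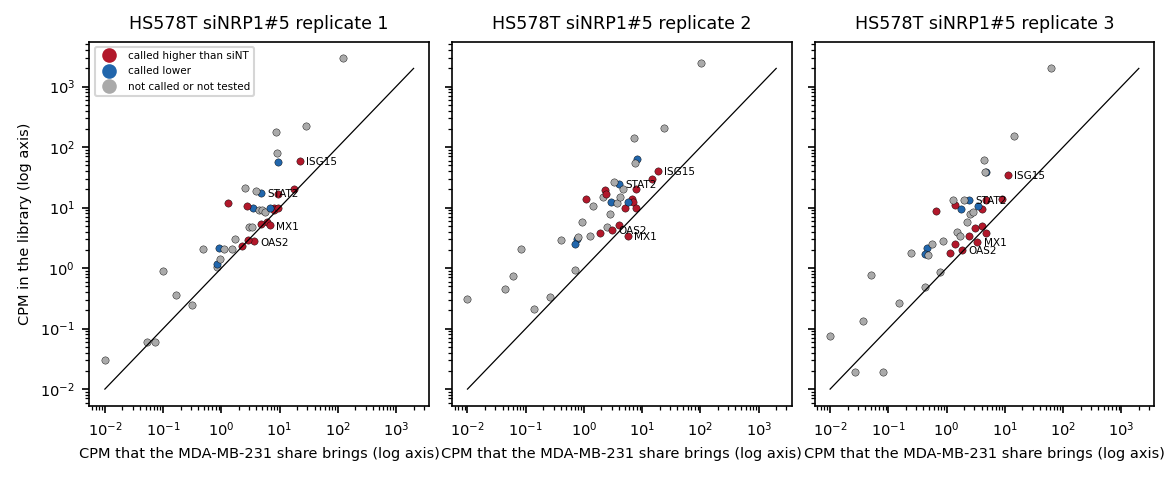
Members in the 3 HS578T siNRP1#5 libraries, with the CPM that the MDA-MB-231 share of the library would bring (share times the MDA-MB-231 siNT level, log x axis) and the CPM in the library (log y axis), both before TMM scaling and drawn at 0.01 where lower. Points on the line are at the level that this share alone gives, red points were called higher and blue lower than HS578T siNT, and MX1 and OAS2 lie near the line while STAT2 and ISG15 lie well above it. The line leaves out the RNA of HS578T itself, with siNT means of 55.1 CPM for STAT2, 23.2 for ISG15, 0.770 for MX1 and 0.524 for OAS2. Height above it is therefore no measure of a rise, and the ISG15 call was lost under both subtractions.

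Whether a knockdown changed a member equally in the 3 lines was tested in a fit of all 52 samples. For siNRP1#3 the test called 6 of 43 members, beside 3.42% of all genes, and they were ISG15, IFIT2, HERC5, OAS3, HERC6 and IFIT3. ISG15 had log2 fold changes in SUM159PT, MDA-MB-231 and HS578T of -1.83, -0.60 and 0.79 (edgeR adjusted p = 0.000415). After subtraction of the MDA-MB-231 share from every HS578T library ISG15 was the 1 member left, and the number was 1, 2 and 1 without replicate 1, 2 or 3 of every group. For siNRP1#5 it called 20, beside 18.2%, and 6 when the HS578T siNRP1#5 libraries were left out, so that SUM159PT was compared with MDA-MB-231. These 6 were STAT2 (-2.65 and -0.36, adjusted p = 0.000142), OAS1 (-3.45 and -0.11, 0.00297), IFIT2 (-2.69 and 0.11, 0.0134), HERC5 (-2.54 and -0.05, 0.0215), IFIT3 (-2.56 and -0.17, 0.0215) and IFIT1 (-1.85 and 0.45, 0.0407). All 6 were called lower in SUM159PT and were not called in MDA-MB-231. The SUM159PT siNRP1#5 samples of IFIT1 overlapped siNT. The share of all genes called without the HS578T siNRP1#5 libraries is not given here.

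For shNRP1#3 the test called 0 members with edgeR, beside 0.747%, with 3 at an unadjusted p under 0.05. For shNRP1#5 it called BST2, EPSTI1 and OAS2, 3 of 43 beside 3.81%, and 1 without replicate 1, 2 or 3 of every group. For shNT against siNT it called 13, beside 13.9%, and 2, 8 and 6 without replicate 1, 2 or 3 of every group. In the order SUM159PT, MDA-MB-231, HS578T, MX2 had log2 fold changes of -0.86, 0.60 and -1.33 (adjusted p = 0.00358), and STAT2 had -0.92, 0.44 and -0.63 (adjusted p = 0.00427). MDA-MB-231 was the line in which both stood higher in shNT.

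Calls were made for members with and without ISRE letters in their window. In SUM159PT siNRP1#5, 10 of 24 with the letters were called lower at a median log2 fold change of -1.023, 7 of 10 tested without them at -1.79 and 7 of 8 without a window at -2.347. In MDA-MB-231 siNRP1#3, 11 of 24 with the letters were called lower and 0 higher, at a median of -0.528, beside 3 lower and 2 higher of 10 without them, at a median of 0.153, and 2 lower and 1 higher of 8 without a window, at a median of -0.307. In the NT controls, HS578T against MDA-MB-231 had a median of -1.606 with the letters and 0.099 without, and the 8 members without a window had -2.401. These are descriptions without a test.

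Other genes of the interferon pathway, 30 that are no members, were counted in the same fits. The genes of the interferons themselves (IFNB1, IFNL1, IFNL2, IFNL3 and IFNE) were too low to be tested in SUM159PT and MDA-MB-231. In SUM159PT siNRP1#5, 14 of 25 tested were called lower and 0 higher, beside 8.89% and 9% of all genes. They included the receptor chain IFNAR2 (log2 fold change -1.56 ± 0.27 SE, edgeR adjusted p = 0.00148), the kinase JAK1 (-1.0 ± 0.24, 0.0103) and the RNA sensors RIGI (-2.84 ± 0.51, 0.00202), DHX58 (-2.98 ± 0.49, 0.00122) and TLR3 (-2.14 ± 0.58, 0.0198). In MDA-MB-231, siNRP1#3 had 12 lower and 2 higher and siNRP1#5 10 lower and 1 higher, of 25, beside 14.3% lower and 11.4% higher of all genes with siNRP1#3 and 14.9% and 14.4% with siNRP1#5. TLR3 (-2.26 ± 0.20, 9.23e-08) and IFNAR2 (-1.26 ± 0.13, 6.1e-07) were among those lower with siNRP1#5. With shNRP1#5 10 of 25 were lower in MDA-MB-231 and 3 of 25 in SUM159PT (IRF1, IRF2 and ISG20), beside 11.9% and 2.7% of all genes. HS578T had 0 calls of 26 with edgeR in both shRNA comparisons, beside 0.0356% of all genes with shNRP1#3 and 0.946% with shNRP1#5, where 0 and 7 had an unadjusted p under 0.05. With siNRP1#3 SOCS3, which restrains cytokine signalling, was lower (-1.53 ± 0.34, 0.0168).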

How the data were processed

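The 52 samples were mRNA libraries of 3 breast cancer cell lines (TruSeq stranded, polyA-enriched, paired-end reads). The authors trimmed reads (Trim Galore 0.6.5, with FastQC 0.11.9), aligned them to GRCh38 (STAR 2.7.2b) and quantified genes with RSEM 1.3.3, set for reverse-stranded reads. The versions stand in the submitters' processing notes. They deposited expected counts, which RSEM estimates and which need not be whole, and TPM, both per gene and sample. Samples that they removed as outliers were not analysed here. Groups and replicate numbers came from the sample labels. The 43 members and the list of other pathway genes were chosen with earlier results of these data known. One pathway gene is counted but not reported here by itself.

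Expected counts were rounded to whole numbers. Each line was fitted by itself over its 6 groups with edgeR 4.0.16 (limma 3.58.1, R 4.3.3), using filterByExpr, TMM normalisation and the quasi-likelihood test, with Benjamini-Hochberg adjustment over all genes tested (20067 for SUM159PT, 18800 for MDA-MB-231, 19661 for HS578T) and a threshold of 0.05. Lines were compared over the 18 NT samples (20686 genes), and equal change in the lines by a quasi-likelihood F test over all 52 samples (23416 genes). CPM were scaled by TMM over the 52 samples, and TPM was used for levels between genes. The shares of RNA of another line are medians over genes of at most 0.5 CPM in the NT controls of the recipient line and at least 20 in those of the source line. A count of 0 was given a floor of 3 counts per library. Intervals and floors cover counting error only. Total expected counts per sample were 25310443 to 72003442 (median 44804505). Members given in full were the up to 5 called with the largest fold change in a comparison, and the up to 3 called with the smallest adjusted p in a test of equal change. The scripts were tested on simulated data.

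Replicate numbers are shared between groups. Deviations from the group means of same-numbered samples correlated between -0.454 and 0.767 over the 15 comparisons within a line, and every correlation was over 0.1 in 6 of the 13 comparisons with 3 pairs (SUM159PT siNRP1#3 and shNRP1#3, MDA-MB-231 siNRP1#5, shNRP1#3 and shNT against siNT, and HS578T shNRP1#5), which were taken as paired. Alternatives were DESeq2 1.42.0, RLE size factors, no filter on low counts, a fit of only the 2 groups, a replicate block, siNT or shNT alone for the line comparisons, each library left out, the HS578T siNRP1#5 libraries left out, and subtraction of an MDA-MB-231 profile from them. Subtraction from every HS578T library was added after seeing the data. Promoter windows were RefSeq's, searched in Python 3.11.15.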

Additional observations from a re-analysis of the deposited data

Results flagged for a closer look

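For 12 results the test of equal change in the 3 lines, an edgeR quasi-likelihood F test over all 52 samples, gave an adjusted p under 0.05 in a member named by the rule for named genes. Log2 fold changes below are given in the order SUM159PT, MDA-MB-231, HS578T.

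With siNRP1#5, HERC5 (-2.54, -0.05 and 4.08, adjusted p = 1.08e-08), OAS2 (-2.19, -0.72 and 2.51, adjusted p = 6.46e-08) and HERC6 (-1.85, -0.51 and 3.46, adjusted p = 2.19e-07) were lower in SUM159PT and higher in HS578T, whose siNRP1#5 libraries hold MDA-MB-231 RNA. Without those libraries, SUM159PT against MDA-MB-231 gave adjusted p of 0.0215 for HERC5, 0.103 for OAS2 and 0.219 for HERC6.

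With shNRP1#5, BST2 was lower in MDA-MB-231 by the largest amount of the 3 lines (-0.57, -2.94 and 0.05, adjusted p = 2.95e-06). EPSTI1 went opposite ways in SUM159PT and MDA-MB-231 (1.49, -0.77 and 0.59, adjusted p = 0.00545), which did not hold without replicate 1, 2 or 3 of every group (0.0726 to 0.200). OAS2 had -2.36, -0.65 and -1.90 (adjusted p = 0.0400), which did not hold without any of the replicate numbers (0.0879 to 0.504) or after subtraction of the MDA-MB-231 share from every HS578T library (0.220).

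With siNRP1#3, ISG15 (-1.83, -0.60 and 0.79, adjusted p = 0.000415), IFIT2 (-2.0, -1.65 and 0.91, adjusted p = 0.00299) and HERC5 (-0.89, -0.74 and 1.84, adjusted p = 0.0130) had negative values in SUM159PT and MDA-MB-231 and positive ones in HS578T. They were called lower in MDA-MB-231 and, but for HERC5, in SUM159PT, and none of the 3 was called in HS578T with edgeR. HS578T siNRP1#3 also held some MDA-MB-231 RNA, and after its subtraction from every HS578T library IFIT2 had an adjusted p of 0.120 and HERC5 of 0.299. Without replicate 1 or 3 IFIT2 had 0.106 and 0.168, and without replicate 1, 2 or 3 HERC5 had 0.305, 0.0904 and 0.128.

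For shNT against siNT, IFIT2 (-2.14, 0.75 and 0.12, adjusted p = 0.00118), MX2 (-0.86, 0.60 and -1.33, adjusted p = 0.00358) and STAT2 (-0.92, 0.44 and -0.63, adjusted p = 0.00427) were called higher in shNT in MDA-MB-231, and IFIT2 and STAT2 were called lower in SUM159PT, where MX2 did not pass. Without replicate 1 of every group the adjusted p were 0.140 for IFIT2, 0.0902 for MX2 and 0.144 for STAT2, without replicate 2 STAT2 had 0.0525, and without replicate 3 IFIT2 had 0.0627.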

How the results depend on the processing

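Among calls chosen by the rule for members given in full, none turned its direction under the alternatives run. Of the other calls, those of MX1 and IFI27 in HS578T siNRP1#5 were higher as deposited and had negative values after subtraction of the MDA-MB-231 siNT profile (log2 fold changes of -8.09, called lower, and -0.63, not called), and IFI35 in HS578T against SUM159PT had 0.0044 with shNT samples only (not called). Under no filter, DESeq2 and the replicate block each of these calls held where it was tested (87, 75 and 87), with RLE size factors 1 of 87 was lost, and when 1 library or replicate number was left out 464 held and 107 were lost. Calls per comparison, with the value of the reported fit in brackets, moved by over 1.5 times as follows. The share of all genes called under an alternative is not given beside these counts or those above. With no filter on low counts, SUM159PT had 9 for siNRP1#3 (5), 4 for shNRP1#3 (1), 18 for shNRP1#5 (8) and 23 for shNT against siNT (12), MDA-MB-231 had 10 for shNRP1#3 (3), HS578T had 7 for siNRP1#3 (1) and 1 for shNRP1#3 (0), and the test of equal change had 13 for siNRP1#3 (6), 9 for shNRP1#5 (3) and 21 for shNT against siNT (13). DESeq2 gave 5 for MDA-MB-231 shNRP1#3, and 3 and 2 for HS578T siNRP1#3 and shNRP1#3. A fit of only the 2 groups gave 2 for SUM159PT siNRP1#5 (25), 10 and 11 for MDA-MB-231 siNRP1#5 (16) and shNRP1#3, and 4 and 0 for HS578T siNRP1#3 and shNRP1#5 (5). The cause was not tested. The replicate block gave 5 for MDA-MB-231 shNRP1#3, 3 for HS578T siNRP1#3, where the numbers were not taken as paired, and 10 for equal change with siNRP1#3. In the other 5 comparisons taken as paired, the replicate block gave 7, 1, 18, 12 and 5 (5, 1, 16, 8 and 5). In the other comparisons too the block kept the calls of the members given in full.

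Without the HS578T siNRP1#5 libraries, HS578T shNRP1#5 had 2 calls and the equal-change test with siNRP1#5 had 6 (20). Subtraction of the MDA-MB-231 siNT profile from those libraries left 0 for HS578T siNRP1#3, 11 for siNRP1#5 (20), 1 for shNRP1#5 and 7 for shNT against siNT (12), and that of the siNRP1#5 profile left 0, 12 and 3 for the knockdowns in the same order. Subtraction from every HS578T library left 0, 12, 1 and 6 and for equal change with siNRP1#3 1.

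When each library was left out in turn, calls ranged in SUM159PT from 3 to 8 for siNRP1#3, 13 to 25 for siNRP1#5, 0 to 0 for shNRP1#3, 2 to 8 for shNRP1#5 and 3 to 13 for shNT against siNT. In MDA-MB-231 they ranged from 15 to 18, 11 to 19, 1 to 3, 23 to 25 and 4 to 7 in the same order. In HS578T they ranged from 0 to 2, 13 to 19, 0 to 0, 0 to 6 and 4 to 8. The line comparisons ranged from 28 to 34, 33 to 36 and 37 to 39. For equal change they ranged from 1 to 2, 16 to 18, 0 to 0, 1 to 1 and 2 to 8. Members near 0 CPM in HS578T limit what its fits could call, and groups of 2 samples rest on the spread of the other groups.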

Other observations

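The 30 pathway genes that are no members also differed between the lines and between the controls. In the NT controls, 25 of them could be tested. HS578T had 19 lower and 4 higher than SUM159PT and 14 lower and 6 higher than MDA-MB-231, and SUM159PT had 15 higher and 2 lower than MDA-MB-231. Of all genes 35.5% were lower and 31% higher, 36.8% lower and 36.4% higher, and 33.4% higher and 28.3% lower in these comparisons. In SUM159PT, 7 were lower in shNT than in siNT and 0 higher, beside 8.45% and 5.96% of all genes, among them SOCS1, which restrains JAK kinases (log2 fold change -2.45), IFNGR1, a chain of the interferon gamma receptor (-1.71), and IRF1, a transcription factor (-1.27). In MDA-MB-231 the same comparison had 3 higher and 4 lower, beside 10.7% and 9.85% of all genes. In HS578T it had MAVS, the mitochondrial adaptor of RNA sensors, higher (1.08) and DHX58 lower (-1.39). With siNRP1#5 in HS578T, the group that holds MDA-MB-231 RNA, RIGI (3.24) and SOCS1 (1.54) were higher and TYK2 (-1.20) lower.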
